A study of Homo sapiens with 15 samples.

Results

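MG-63 cells, an osteosarcoma line with osteoblast-like features, were cultivated for 4 h or for 24 h on titanium chips coated with Ti-TMS-PEI, an amine-based polymer layer, and the RNA of the attached cells was measured on Clariom S arrays. The comparison of the later with the earlier time used 8 of the 15 arrays of the series, the 4 arrays of Ti-TMS-PEI at 24 h (A to D) against the 4 arrays of Ti-TMS-PEI at 4 h (A to D). The other 7 arrays came from cells on uncoated titanium, Ti-Ref, with 4 arrays at 4 h and 3 at 24 h, and served to show where the change on the coating differed. All groups were unmodified MG-63 cells in DMEM with fetal calf serum and the antibiotic gentamicin, and the labels name no other treatment. The chips were moved to fresh wells before lysis, so that only cells attached to the chip contributed RNA, and a tumour line on a chip stands for osteoblasts only in part. The same letters recur in every group, and the methods describe the arrays of a group both as independent experiments and as technical replicates, so that the p-values measure the spread between these arrays and part of it may be technical.

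All 21448 transcript clusters of the array were tested, of which 17709 carried 1 gene symbol and are described by name, with the clusters of the remaining 3739 counted but not named. Arrays have no sequencing depth, and their number limits the precision. The deposited log2 values of the 4 h arrays had medians of 5.79 to 5.86 and those of the 24 h arrays medians of 6.71 to 6.79, since each time had been normalized by itself. The 15 arrays were therefore quantile normalized together, and all levels below are log2 values on that joint scale. A gene-specific offset between arrays processed at different times would remain after this step, so time in culture and array batch cannot be told apart in any difference between 24 h and 4 h. As a measured reference, 348 olfactory receptor genes, which belong to nasal epithelium and lay at a mean level of 3.42 to 3.62 on the arrays, included 12 called higher and 28 called lower at 24 h on Ti-TMS-PEI, 11.5% in all, and 12.9% on Ti-Ref. The difference between the surfaces is the change over time on Ti-TMS-PEI minus the change over time on Ti-Ref. An offset shared by both surfaces would cancel in it. Of the olfactory receptor genes 0.3% were called in this difference. Among the 5362 dimmest clusters the shares were 11.6% on Ti-TMS-PEI, 11.7% on Ti-Ref and 0.4% in the difference. The olfactory receptor shares were near those of dim clusters in general, so whether an offset cancelled was not tested. The olfactory receptor genes were chosen as a reference after the values had been seen. Some arrays stood apart from their group: in a principal component analysis of the 8 arrays, 4 h array A lay apart on the second component (35.4 against -17.5 to -9.08), and over all 15 arrays 24 h arrays A and B of Ti-TMS-PEI lay farther out (29.8 and 22.3) than C and D (10.3 and 11.9). Without any 1 of the 8 arrays 5337 to 5686 clusters were called, against 5561 with all.

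Cells that have just attached to a surface are still responding to detachment, seeding and fresh serum. Growth factor and integrin signals run through the RAS and ERK kinases and switch on immediate early genes, whose products are transcription factors and feedback inhibitors, while NF-kappaB, a transcription factor held in the cytoplasm by inhibitor proteins, drives cytokine and chemokine genes. Later, cells spread, deposit matrix and, where conditions allow, copy their DNA and divide. Osteoblasts are the bone-forming cells whose adhesion to an implant precedes the deposition of collagen and mineral.

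The promoters of 7 called genes from 3 groups that changed together are shown because each group is known for a short DNA element near the transcription start. Only called genes whose promoter held the element could be shown, so its presence in these 7 is no result. The sequences are those of RefSeq on GRCh38.p14 and span 250 bases before to 50 bases after the start, with the elements in capitals. For genes of G2 and M phase the capitals mark the cell cycle homology region (CHR, TTTGAA or TTCGAA), bound by the DREAM and MuvB complexes, and the CCAAT box (CCAAT), bound by NF-Y, each on either strand.
CENPF promoter, chr1:214602945-214603244, plus strand: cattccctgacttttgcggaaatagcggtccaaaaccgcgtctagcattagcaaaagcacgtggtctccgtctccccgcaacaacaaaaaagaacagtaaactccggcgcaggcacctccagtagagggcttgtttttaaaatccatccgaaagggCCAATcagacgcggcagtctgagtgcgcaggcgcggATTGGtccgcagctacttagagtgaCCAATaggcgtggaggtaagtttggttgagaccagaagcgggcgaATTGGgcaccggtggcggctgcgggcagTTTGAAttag
ASPM promoter, chr1:197146620-197146919, minus strand: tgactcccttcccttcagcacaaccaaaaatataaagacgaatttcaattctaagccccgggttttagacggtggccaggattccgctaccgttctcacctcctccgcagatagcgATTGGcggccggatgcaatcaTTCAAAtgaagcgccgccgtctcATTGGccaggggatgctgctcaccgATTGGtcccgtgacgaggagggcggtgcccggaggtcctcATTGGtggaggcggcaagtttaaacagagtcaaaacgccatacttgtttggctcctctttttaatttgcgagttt
KIF15 promoter, chr3:44761544-44761843, plus strand: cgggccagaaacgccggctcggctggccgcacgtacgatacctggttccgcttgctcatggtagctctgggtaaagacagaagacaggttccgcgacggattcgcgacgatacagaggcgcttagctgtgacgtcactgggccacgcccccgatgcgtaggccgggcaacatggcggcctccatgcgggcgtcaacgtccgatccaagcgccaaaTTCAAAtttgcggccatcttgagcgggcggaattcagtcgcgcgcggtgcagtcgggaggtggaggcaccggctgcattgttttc
For the targets of NF-kappaB the capitals mark matches to the NF-kappaB consensus on either strand.
IL6 promoter, chr7:22726950-22727249, plus strand: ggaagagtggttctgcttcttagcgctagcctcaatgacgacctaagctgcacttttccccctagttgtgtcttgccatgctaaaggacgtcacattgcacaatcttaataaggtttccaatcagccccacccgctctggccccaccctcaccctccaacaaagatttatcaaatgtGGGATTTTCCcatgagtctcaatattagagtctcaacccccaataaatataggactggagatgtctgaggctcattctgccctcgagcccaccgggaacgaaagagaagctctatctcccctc
TNFAIP3 promoter, chr6:137867009-137867308, plus strand: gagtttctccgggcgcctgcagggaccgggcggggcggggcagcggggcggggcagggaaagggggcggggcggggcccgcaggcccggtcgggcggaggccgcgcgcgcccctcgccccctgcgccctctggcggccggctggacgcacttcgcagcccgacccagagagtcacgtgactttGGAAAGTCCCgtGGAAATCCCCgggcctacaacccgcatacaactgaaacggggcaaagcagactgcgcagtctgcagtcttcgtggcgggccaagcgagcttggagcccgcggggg
For the metallothioneins, which bind zinc and copper, the capitals mark the core of the metal response element (TGCNCNC, on either strand), recognised by the zinc-sensing factor MTF1.
MT1H promoter, chr16:56669564-56669863, plus strand: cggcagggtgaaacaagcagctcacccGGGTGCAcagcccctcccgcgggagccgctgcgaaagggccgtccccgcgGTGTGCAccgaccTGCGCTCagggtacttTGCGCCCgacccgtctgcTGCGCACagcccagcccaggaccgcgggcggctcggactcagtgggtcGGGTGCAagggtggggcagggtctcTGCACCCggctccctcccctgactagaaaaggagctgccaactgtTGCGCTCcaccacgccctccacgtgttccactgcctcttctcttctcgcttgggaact
MT1X promoter, chr16:56682220-56682519, plus strand: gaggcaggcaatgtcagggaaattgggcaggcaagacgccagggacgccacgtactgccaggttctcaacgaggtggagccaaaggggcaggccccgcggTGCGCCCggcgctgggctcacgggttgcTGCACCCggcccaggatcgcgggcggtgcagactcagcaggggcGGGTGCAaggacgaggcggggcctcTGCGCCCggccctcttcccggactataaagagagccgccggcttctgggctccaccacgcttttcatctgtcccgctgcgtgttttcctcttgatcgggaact
A CHR was present in 34 of the 47 promoters matched to the 54 G2 and M phase genes (72.3%) and in 16.6% of all 27305 promoters of this length. A CCAAT box was present in 36 of those 47 (76.6%) against 35.7% of all promoters. The NF-kappaB consensus was found in 8 of 14 matched promoters of its list (57.1%) against 10.8% of all, and the metal response element in 6 of 6 matched metallothionein promoters against 55.2% of all. The lists hold genes of groups known for these elements, so the higher shares follow at least in part from how the lists were made. Among the called genes with a matched promoter, a CHR was present in 20 of 28 and a CCAAT box in 23 of 28. The NF-kappaB consensus was present in 6 of 10 and the metal response element in 3 of 3. Whether the elements go with the change over time was not tested. These matches describe the letters in the window and not occupied sites.

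A gene was called when its fold change exceeded 1.5, its p was under 0.05 and its adjusted p from limma with the Benjamini-Hochberg method over all clusters was under 0.05. On Ti-TMS-PEI 5561 of 21448 clusters were called (25.9%), 2805 higher at 24 h (13.1%) and 2756 lower (12.8%). The counts of each list below are to be read against these shares, and counts near them are no result about the list. The 4 arrays of 24 h lay wholly above or below the 4 arrays of 4 h in 5166 of the called clusters, which is 92.9%. Over all clusters this held for 9060 (42.2%), and calling itself selects clusters whose times are well separated. Changes over 4-fold were found in 84 clusters higher and 86 lower, and changes over 8-fold in 19 higher and 14 lower. The even split rests on the joint scale: of all calls 50.4% were higher at 24 h, but 23.7% with the deposited values centred on each array's median, 63.0% with centring on reference genes and 97.3% with the deposited values as they stand. These scalings moved the median change of all clusters from -0.01 to -0.28, 0.09 and 0.68 on the log2 scale, and list medians below were read against that median. Against it, 40 of the 53 lists examined kept the sign of their median under the 4 other scalings, and 13 did not. The sign turned with the deposited values, centred or as they stand, for the lists of homologous recombination, G1 and E2F, focal adhesion, SRF targets, junctions, osteoblast differentiation, glycolysis, the ATF4 response, the proteasome and mesenchymal and endothelial markers, and with cyclic loess for oxidative phosphorylation and tRNA synthetases. Counts of members also moved with the scaling, and where they shifted most the counts with median-centred deposited values stand beside those on the joint scale.

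**Figure D1:**
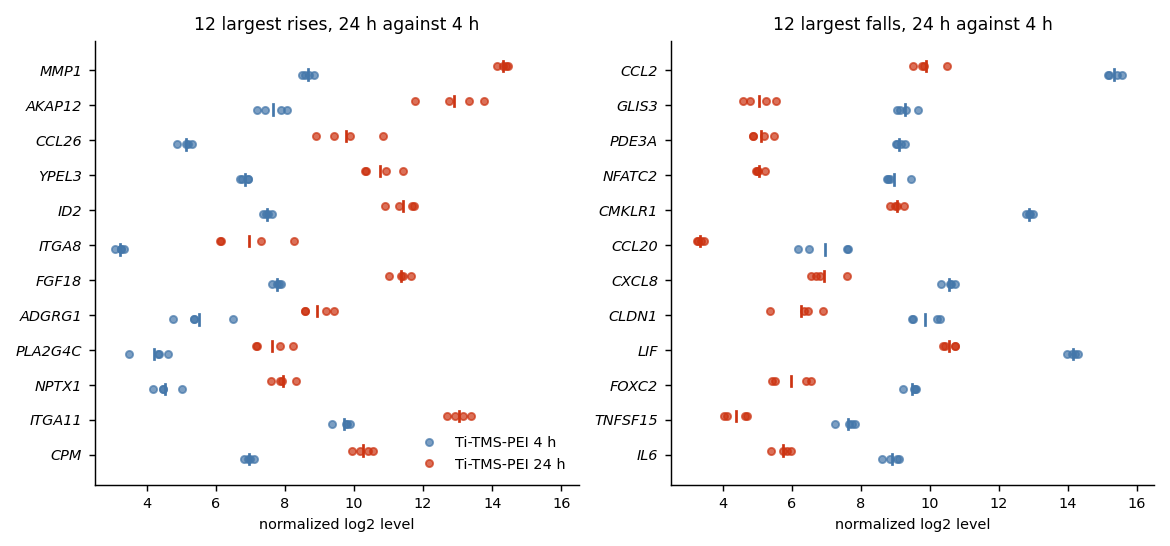
Normalized log2 level (x axis) of the 12 genes with the largest rises (left) and the 12 with the largest falls (right) on Ti-TMS-PEI; each point is 1 of the 4 arrays at 4 h (blue) or 24 h (red), and vertical bars are means. Genes entered only if they were called and the arrays of both times did not overlap. They run from MMP1 (8.50 to 8.85 against 14.14 to 14.46) to IL6 (8.61 to 9.11 against 5.41 to 5.99).

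The largest rise on the coating was that of MMP1, the interstitial collagenase that cleaves fibrillar collagen. Its level was 8.85, 8.58, 8.50 and 8.71 on arrays A to D at 4 h and 14.39, 14.46, 14.14 and 14.30 at 24 h. It was 50.6-fold higher at 24 h (log2 fold change 5.66 ± 0.12, SE, n = 4 and 4, limma adjusted p = 3.32e-09). Every 24 h array lay more than 5 units above every array of 4 h, in a gene whose arrays within each time differed by less than 0.4. AKAP12, a scaffold protein of protein kinase A and C signalling, had levels of 7.42, 7.19, 7.89 and 8.07 at 4 h and 13.77, 13.33, 11.77 and 12.76 at 24 h. The 24 h arrays were spread more widely than in MMP1, with array A highest and array C lowest, yet none approached the 4 h arrays. AKAP12 was 38.4-fold higher (log2 fold change 5.26 ± 0.37, limma adjusted p = 5.45e-06).

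CCL26, the chemokine eotaxin-3 that attracts eosinophils, went from 5.20, 4.89, 5.31 and 5.13 to 10.83, 9.89, 8.89 and 9.42, again with array A highest and C lowest (24.7-fold, limma adjusted p = 5.81e-06).

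The other genes among the 12 largest rises changed between 9.92-fold and 15.2-fold. YPEL3, a small zinc-binding protein linked to growth arrest, rose 15.2-fold from levels of 6.71 to 6.93 at 4 h to 10.32 to 11.43 at 24 h. ID2, a dominant-negative helix-loop-helix protein induced by BMP signals, rose 15.1-fold from 7.38 to 7.63 up to 10.91 to 11.75. A pair of alpha integrin chains that partner with the beta 1 chain belonged to this set. ITGA8, the alpha chain of a nephronectin receptor, was at 3.08, 3.26, 3.27 and 3.33 at 4 h, a level at which the dimmest 25% of clusters lie (median 3.42), and at 8.25, 7.30, 6.13 and 6.14 at 24 h. ITGA11, the alpha chain of a collagen receptor of mesenchymal cells, rose 10.1-fold, from 9.36 to 9.88 up to 12.69 to 13.40. FGF18, a growth factor of cartilage and bone, rose 11.9-fold from 7.64 to 7.89 up to 11.02 to 11.66. The remaining members were the adhesion receptor ADGRG1 (10.8-fold), the cytosolic phospholipase PLA2G4C (10.6-fold), the neuronal pentraxin NPTX1 (10.6-fold) and the carboxypeptidase CPM (9.92-fold). Arrays of both times that stood apart were a condition for entering the 12 largest rises and the 12 largest falls.

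The largest fall was that of CCL2, the monocyte chemoattractant MCP-1. CCL2 was at 15.15, 15.20, 15.42 and 15.56 at 4 h and at 9.5, 9.83, 10.5 and 9.78 at 24 h (43.3-fold lower, log2 fold change -5.43 ± 0.20, limma adjusted p = 2.25e-07). The 24 h arrays were all at least 4.6 units below those of 4 h. Among the 12 largest falls 5 others also encode secreted signals. LIF, a cytokine of the interleukin 6 family, was at 13.98 to 14.29 at 4 h and 10.37 to 10.73 at 24 h (11.9-fold lower). CXCL8, the neutrophil chemokine interleukin 8, fell 12.4-fold from 10.33 to 10.72 down to 6.57 to 7.59, and IL6 fell 8.86-fold from 8.61 to 9.11 down to 5.41 to 5.99. CCL20, a chemokine for CCR6, fell from 6.50, 6.18, 7.59 and 7.64 to 3.30, 3.25, 3.46 and 3.37, where the size of the fall is limited by the floor of the array. TNFSF15, a ligand of the tumour necrosis factor family, fell 9.49-fold.

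The other large falls were in receptors, transcription factors and signalling enzymes. CMKLR1, the receptor of chemerin, fell 14.4-fold from 12.78 to 12.99 down to 8.84 to 9.26. The transcription factors GLIS3 (18.8-fold), NFATC2 (14.99-fold) and FOXC2 (11.3-fold) fell to levels of 4.59 to 5.54, 4.98 to 5.23 and 5.44 to 6.57. PDE3A, a phosphodiesterase that degrades cyclic AMP, fell 16.1-fold, and CLDN1, a claudin of tight junctions, fell 12.02-fold with its 24 h arrays spread from 5.37 on array A to 6.92 on array C.

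NF-kappaB targets and cytokines fell as a list: 12 of 18 measured genes were lower and none higher, with a median log2 fold change of -1.03 against -0.01 over all clusters. Beside LIF and IL6, the list held TNFAIP3, which encodes the A20 feedback inhibitor, at 10.08 ± 0.07 (SD, n = 4) at 4 h and 7.77 ± 0.29 at 24 h, 4.93-fold lower. The subunits of the factor itself fell as well, RELB 4.24-fold (8.86 ± 0.25 to 6.78 ± 0.36) and NFKB1 2.45-fold (11.98 ± 0.15 to 10.69 ± 0.01). The chemokine list had 7 of 18 genes lower and only CCL26 higher, so that the sharp rise of CCL26 ran against the falls of CCL2, CXCL8, CCL20, CX3CL1 (3.26-fold) and CXCL10 (4.87-fold). Of the 21 measured interferon-stimulated genes 7 were higher and 2 lower, among them BST2, which tethers viruses (2.21-fold higher), IFIT1 (2.47-fold higher) and OASL (1.87-fold lower).

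Immediate early genes and the feedback genes of ERK signalling were lower at 24 h. Of 28 immediate early genes 14 were lower and 2 higher (median -0.67), and of 20 ERK feedback and target genes 14 were lower and 2 higher (median -0.83). FOSB, a subunit of the AP-1 factor, fell 5.09-fold to 3.97 ± 0.12, and CCN1, a matricellular protein, fell 4.32-fold from 12.25 ± 0.10 to 10.13 ± 0.14. MYC, the growth-promoting transcription factor, fell 2.28-fold from 14.92 ± 0.05 to 13.73 ± 0.08, with arrays of both times apart, and IER3 (2.94-fold) and KLF6 (1.91-fold) fell from levels above 14. JUNB, another AP-1 subunit, rose 2.08-fold.

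Some feedback inhibitors that dampen ERK fell. Of 10 MAP kinase phosphatases, which remove phosphate from MAP kinases, 4 were lower, none was higher and 6 were not called (median -0.28). DUSP5 (5.10-fold), DUSP6 (3.77-fold) and DUSP7 (2.69-fold) fell, whereas DUSP1 had a log2 fold change of -0.18 (limma adjusted p = 0.228). SPRY4 and SPRY2, which block signalling between receptors and RAS, fell 2.30-fold and 2.28-fold. Among 11 genes for EGF receptors and their ligands 4 were lower and 1 was higher. The ligands NRG1 (4.25-fold) and HBEGF (3.03-fold) fell, TGFA rose 4.22-fold from 3.87 ± 0.27, and the receptor EGFR itself had a log2 fold change of -0.42 that did not pass the fold threshold.

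Targets of YAP and TEAD, the effectors of the Hippo pathway that respond to spreading and stiffness, had 9 of 23 genes lower and 2 higher (median -0.56). TEAD4, one of the DNA-binding partners of YAP, fell 7.78-fold from 9.09 ± 0.22 to 6.13 ± 0.38. NUAK2, a kinase, fell 5.50-fold and AMOTL1, an adaptor of the pathway, 3.29-fold, while CCN2 (16.57 ± 0.05 at 4 h) changed by -0.49 on the log2 scale and was not called. In the NOTCH pathway 7 of 16 genes were lower and 3 higher. Its ligand JAG1 fell 3.40-fold and its target genes HES1, HES4 and HEYL fell 4.39-fold, 4.19-fold and 3.76-fold, whereas RBPJ, the DNA-binding partner of the NOTCH intracellular domain, rose 2.48-fold.

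Of 26 genes of TGF-beta and BMP signalling 11 were higher and 5 lower (median 0.38). ID1, ID2 and ID3, which restrain differentiation factors and are direct BMP targets, rose: ID2 as above, ID1 6.32-fold from 10.35 ± 0.25 to 13.01 ± 0.12, and ID3 3.78-fold from 12.70 ± 0.17 to 14.62 ± 0.21. The ligand BMP4 rose 3.96-fold from a low level of 3.49 ± 0.21, and SMAD6, an inhibitor of BMP receptors, rose 2.31-fold. Of 32 WNT ligands, receptors and feedback genes 14 were higher and 4 lower, with a median of 0.20, and 9 were higher and 7 lower with median-centred deposited values. WNT7B rose 6.67-fold from 4.69 ± 0.07 and WNT9A 6.03-fold, the receptor FZD1 rose 2.06-fold and the receptor kinase ROR1 fell 2.68-fold. WNT5A, a ligand of non-canonical WNT signalling, had a log2 fold change of -0.23 (limma adjusted p = 0.108).

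Among 13 FGF ligands and receptors 4 were higher and 3 lower, and the ligands moved apart. FGF18 and FGF7 (2.54-fold) rose, and FGF2 (3.18-fold) and FGF5 (1.70-fold) fell. Clock genes had 8 of 16 members higher and 3 lower, including the repressors NR1D2 (2.94-fold higher) and PER3 (2.89-fold higher) and the repressor CRY1 (3.48-fold lower). Genes of FOXO signalling and growth arrest had 9 of 19 members higher and 1 lower (median 0.40), with CCNG2, an atypical cyclin of arrested cells, 5.15-fold higher and CITED2, a coactivator-binding protein, 2.98-fold higher.

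**Figure D2:**
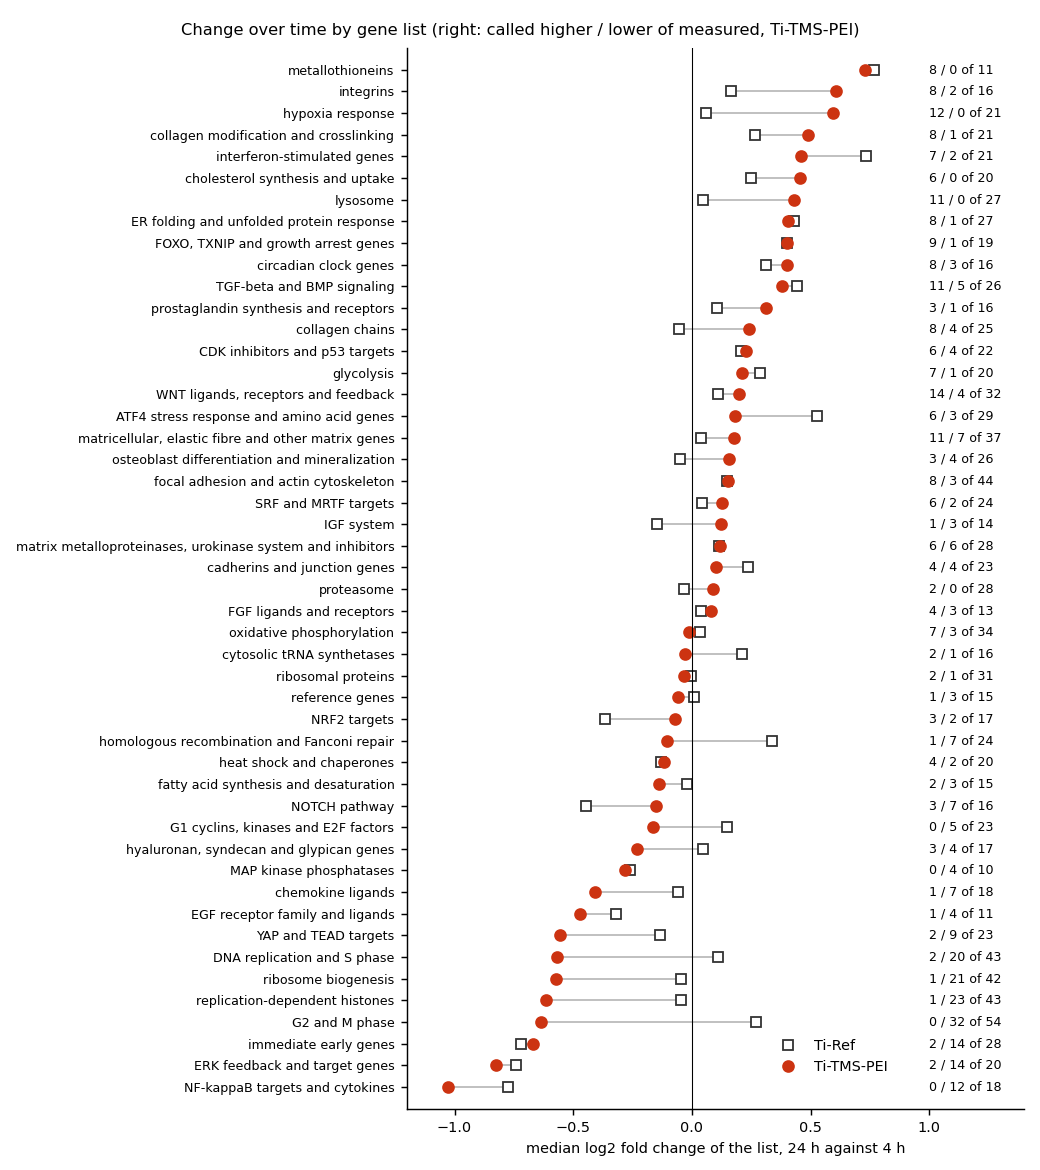
Median log2 fold change (x axis, 24 h against 4 h) of each gene list other than the cell type markers on Ti-TMS-PEI (red circles) and Ti-Ref (open squares), with the counts of genes called higher and lower on Ti-TMS-PEI at the right. NF-kappaB targets lie lowest at -1.03 on the coating, metallothioneins highest at 0.73, and the squares and circles of G2 and M phase lie on opposite sides of 0.

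Genes of the cell cycle were lower at 24 h than at 4 h on the coating. Of 54 genes of G2 and M phase 32 were lower and none higher (median -0.64), of 43 genes of DNA replication and S phase 20 were lower and 2 higher (median -0.57), and of 43 replication-dependent histone genes 23 were lower and 1 higher (median -0.61). CENPF, a kinetochore protein, fell 2.497-fold from 12.79 ± 0.08 to 11.47 ± 0.16. NEK2, a centrosome kinase, fell 2.52-fold, the spindle protein ASPM 2.12-fold, the mitotic kinesin KIF15 2.66-fold and the proliferation marker MKI67 2.10-fold. The mitotic kinase PLK1 (log2 fold change 0.08, and -0.80 with median-centred deposited values) and the checkpoint protein BUB3 (-0.32) were not called. In S phase RRM1, a subunit of ribonucleotide reductase, fell 2.22-fold, the remodeller HELLS 2.39-fold and the polymerase subunit POLA1 2.55-fold, while MCM4, a subunit of the replicative helicase, rose 1.92-fold (not called with median-centred deposited values) and its partner MCM3 had a log2 fold change of -0.57.

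The mean level of the G2 and M phase list showed how the arrays differed. It was 11.70, 11.77, 11.74 and 11.77 on the 4 h arrays of Ti-TMS-PEI and 10.81, 10.95, 11.35 and 11.40 on the 24 h arrays A to D. On Ti-Ref it was 11.74 to 11.85 at 4 h and 12.01 to 12.14 at 24 h. The coated arrays were therefore lower at the later time and the uncoated arrays higher, with no overlap in either, and among the coated arrays of 24 h A and B were the lowest. S phase genes were also lowest on arrays A and B, with 10.14, 10.30, 10.66 and 10.62 on the 24 h arrays A to D against 10.87 to 10.98 at 4 h. Leaving out any of the 8 arrays left 26 to 35 G2 and M phase genes lower and none higher. With the deposited values as they stand 6 were lower and 7 higher, at a median of 0.05 against 0.68 over all clusters.

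Of 23 G1 cyclins, kinases and E2F factors 5 were lower and none higher (median -0.17, which turned to 0.05 above the median of all clusters with the deposited values as they stand). CDK2, the kinase that starts S phase, fell 2.51-fold from 13.10 ± 0.10 to 11.77 ± 0.34, and E2F8, a repressive E2F factor, fell 1.63-fold. Homologous recombination and Fanconi repair genes had 7 of 24 members lower and 1 higher (median -0.10, also turned by the deposited values), with PALB2, the partner of BRCA2, 2.16-fold lower and XRCC3 1.53-fold lower, a call that was lost with median-centred deposited values, with reference gene centring, without 4 h array B and without 24 h array A. Among the histone genes H4C13 fell 3.07-fold and H2AC12 2.54-fold, and H1-5, at 16.52 ± 0.13 at 4 h, was not called (log2 fold change -0.46). Histone genes are near-identical copies, and the probes may not tell them apart. CDK inhibitors and p53 targets had 6 of 22 genes higher and 4 lower.

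Ribosome biogenesis genes, which build ribosomal subunits in the nucleolus, had 21 of 42 members lower and 1 higher (median -0.57). PWP2 fell 2.81-fold from 10.82 ± 0.12 to 9.33 ± 0.08, RRP1 2.36-fold and HEATR1 2.11-fold. The list mean was 11.15 to 11.28 at 4 h and 10.65 to 10.76 at 24 h, with the arrays of both times apart. Ribosomal protein genes themselves had 2 of 31 members higher (RPL27 1.75-fold, not called with median-centred deposited values) and 1 lower (RPS16 1.82-fold). Their median depended on the scaling, at -0.03 on the joint scale and -0.96 with median-centred deposited values.

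**Figure D3:**
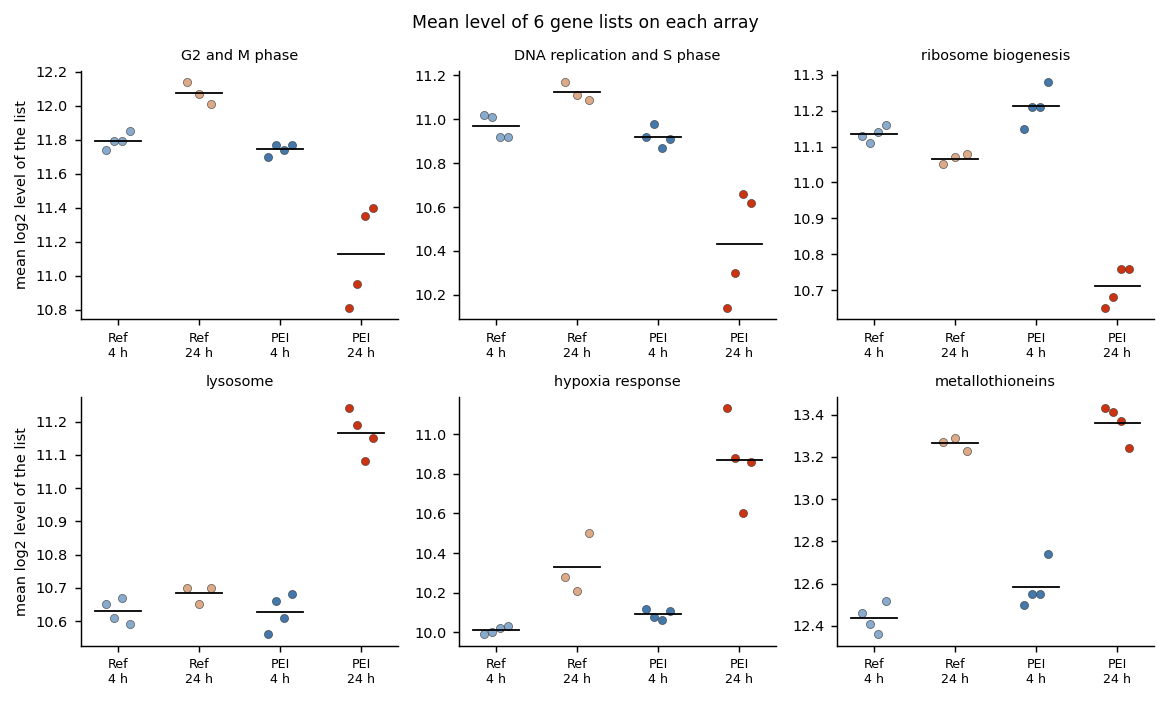
Mean log2 level (y axis) of 6 gene lists on each array of Ti-Ref (Ref) and Ti-TMS-PEI (PEI) at 4 h and 24 h; points are arrays and lines are group means, and each panel has its own axis. G2 and M phase genes lie at 10.81 to 11.40 on the coated arrays of 24 h and at 11.70 or above in the other 3 groups, and metallothioneins rise on both surfaces.

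Of 16 integrin genes, which encode the receptors that bind matrix, 8 were higher and 2 lower (median 0.61). Beside ITGA8 and ITGA11, ITGB5, a beta chain of vitronectin receptors, rose 3.11-fold from 10.13 ± 0.14 to 11.77 ± 0.05. Of 44 focal adhesion and actin genes 8 were higher and 3 lower (median 0.15), and 5 were higher and 19 lower with median-centred deposited values, among them the adaptors BCAR1 (3.13-fold higher) and LIMS1 (3.77-fold higher). TPM1, a tropomyosin and target of SRF, rose 2.30-fold, and DIAPH3, a formin that also serves cell division, fell 2.81-fold. Junction genes had 4 of 23 members higher and 4 lower (4 and 7 with median-centred deposited values), with JUP, the plakoglobin of desmosomes and cadherin junctions, 4.79-fold higher, CDH11, the osteoblast cadherin, 2.98-fold higher and CLDN1 lower as above.

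Matrix genes changed in both directions. Of 25 collagen chains 8 were higher and 4 lower, of 21 collagen-modifying genes 8 were higher and 1 lower (median 0.49), and of 37 matricellular and other matrix genes 11 were higher and 7 lower. These counts rest on the scaling: with median-centred deposited values 4 collagen chains were higher and 5 lower, 6 collagen-modifying genes higher and 8 lower, and 4 matricellular genes higher and 13 lower. COL4A5, a chain of basement membrane collagen, rose 3.33-fold and COL27A1, a fibrillar chain, fell 2.89-fold, while COL1A1, the main chain of bone collagen at 14.79 ± 0.10 and 15.04 ± 0.15, had a log2 fold change of 0.25 (limma adjusted p = 0.0833, and -0.49 with median-centred deposited values). The hydroxylases P4HA2 (3.56-fold) and PLOD1 (2.40-fold), which modify proline and lysine in collagen, rose. SPOCK1, a proteoglycan, rose 3.48-fold. MFAP5, a microfibril protein, fell 6.84-fold and THBS1, a thrombospondin, 3.65-fold from 14.64 ± 0.10 to 12.78 ± 0.24.

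Matrix metalloproteinases and the urokinase system had 6 of 28 genes higher and 6 lower (2 and 8 with median-centred deposited values). Among collagen-degrading enzymes MMP1 and the membrane-bound MMP14 (2.59-fold) rose, MMP3 (stromelysin-1) fell 3.11-fold, and PLAUR, the urokinase receptor, fell 2.17-fold. Hyaluronan, syndecan and glypican genes had 3 of 17 members higher, including the hyaluronan-degrading CEMIP (4.05-fold), and 4 lower, including the syndecan SDC2 (2.18-fold). Of 26 genes of osteoblast differentiation and mineralization 3 were higher and 4 lower (2 and 8 with median-centred deposited values). ALPL, the alkaline phosphatase that releases phosphate for mineral, rose 2.70-fold from a low 4.21 ± 0.32. RUNX2, the master factor of the osteoblast lineage, fell 2.61-fold from 6.78 ± 0.25 to 5.4 ± 0.22, and VDR, the vitamin D receptor, fell 2.83-fold. SPARC (osteonectin) had a log2 fold change of 0.56, just inside the fold limit, and was not called.

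Metallothioneins rose at 24 h, with 8 of 11 genes higher and none lower (median 0.73), and with 3 higher and 2 lower with median-centred deposited values (median 0.37 above that of all clusters). MT1F, whose arrays were at 11.20 ± 0.10 and 13.42 ± 0.12, rose 4.66-fold, MT1H 2.23-fold and MT1E 2.12-fold. MT1E was not called with median-centred deposited values. MT1X was called higher on the joint scale, but its sign turned with median-centred deposited values (log2 fold change -0.24). MT2A lay at the top of the scale, at 17.98 ± 0.05 and 18.01, where quantile normalization leaves no room for a difference. The genes are close paralogs, and probes of 1 member may read another.

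Of 27 genes of endoplasmic reticulum folding 8 were higher and 1 lower (median 0.40), with HERPUD1, a component of protein disposal, 3.45-fold higher, the disulfide isomerase PDIA4 2.70-fold higher and the transcription factor XBP1 2.55-fold higher. In the ATF4 stress response 29 genes were measured by 30 clusters, of which 6 were higher and 3 lower (median 0.18), and 5 were higher and 10 lower with median-centred deposited values. CHAC1, which degrades glutathione, rose 9.45-fold from 5.43 ± 0.63 to 8.67 ± 0.35, DDIT4, an inhibitor of mTOR, 4.45-fold and STC2 2.29-fold, while the cystine transporter SLC7A11 fell 3.52-fold. Among heat shock genes 4 of 20 were higher and 2 lower (3 and 11 with median-centred deposited values), and HSPB8 (2.62-fold) and HSPA1A (2.79-fold) were among those that rose.

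Hypoxia response genes had 12 of 21 members higher and none lower (median 0.59). NDRG1, a gene induced by low oxygen and by differentiation, rose 4.07-fold from 14.32 ± 0.11 to 16.35 ± 0.51, and SLC2A1, the glucose transporter GLUT1, 2.52-fold. The hypoxia list mean was 10.06 to 10.12 at 4 h and 11.13, 10.88, 10.60 and 10.86 on the 24 h arrays A to D, with array A the highest. Lysosomal genes had 11 of 27 members higher and none lower (median 0.43), with list means of 10.56 to 10.68 at 4 h and 11.08 to 11.24 at 24 h. The membrane protein LAMP2 rose 2.58-fold, the autophagy receptor SQSTM1 2.49-fold, GPNMB, a glycoprotein of lysosomes and osteoblasts, 2.31-fold and the protease CTSD 1.81-fold, of which SQSTM1 and CTSD were not called with median-centred deposited values.

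Of 20 glycolysis genes 7 were higher and 1 lower (median 0.21), and 2 were higher and 5 lower with median-centred deposited values. HK1, a hexokinase, rose 3.65-fold from 11.13 ± 0.17 to 13 ± 0.04, and GAPDH had a log2 fold change of 0.15 that turned to -0.11 with cyclic loess. Cholesterol genes had 6 of 20 members higher and none lower, including MVD (2.49-fold), an enzyme of the mevalonate route, and INSIG1 (2.17-fold), a sterol-regulated brake on synthesis. Fatty acid genes were divided, with the desaturase SCD 2.19-fold higher and the synthase FASN 1.94-fold lower. Prostaglandin genes had 3 of 16 members higher and 1 lower: PLA2G4A, which releases arachidonic acid, rose 3.25-fold beside PLA2G4C, and the receptor PTGER4 fell 2.69-fold. Of 34 oxidative phosphorylation genes 7 were higher and 3 lower (2 and 12 with median-centred deposited values), and of 28 proteasome genes 2 were higher and none lower (1 and 11). Of 16 tRNA synthetases 2 were higher and 1 lower (1 and 6), of 14 IGF genes 1 was higher and 3 lower (0 and 5), and of 17 NRF2 targets 3 were higher and 2 lower (2 and 9). Of 24 SRF and MRTF targets 6 were higher and 2 lower (4 and 9).

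Markers of other cell types were checked because a culture that gained or lost a cell type would shift them. The 16 mesenchymal and osteoblast-like markers had a mean level of 12.35 to 12.44 at 4 h and 12.52 to 12.67 at 24 h, with 5 higher and 3 lower (3 and 6 with median-centred deposited values). PDGFRB, a receptor of mesenchymal cells, rose 2.98-fold and THY1, the surface protein CD90, fell 4.43-fold from 13.38 ± 0.05 to 11.23 ± 0.61. Epithelial, endothelial, and neural and muscle markers had mean levels of 4.2 to 4.88 on all arrays of the coating, and blood markers 5.53 to 5.82. These levels lay above the 3.42 to 3.62 of the olfactory receptor genes. Of 10 epithelial markers 1 was higher and 1 lower, and of 9 endothelial markers 2 were higher and none lower. Of 8 neural and muscle markers 1 was higher and 2 lower, and of 8 blood markers 2 were higher and 1 lower. The endothelial list mean was 4.21 to 4.53 at 4 h and 4.67 to 4.88 at 24 h, without overlap. Yet 4 of its genes had positive and 5 negative changes, at a median of -0.005. On Ti-Ref 3 of the 9 were higher, and the list mean went from 4.12 to 4.28 up to 4.59 to 4.77. The endothelial genes CDH5 (4.97-fold, from 5.77 ± 0.26 to 8.08 ± 0.28) and TEK (2.996-fold) rose, the keratin KRT14 fell 2.26-fold to 3.22 ± 0.08, and of the blood markers CD68, also a lysosomal protein, rose 2.38-fold and CD14 fell 3.87-fold. The epithelial list that holds KRT14 had 6 positive and 4 negative changes, at a median of 0.2. Reference genes had 1 of 15 members higher and 3 lower, among them POLR2A, the large subunit of RNA polymerase II (1.83-fold lower), at a median of -0.06. The part of these values in the other results was not tested, and in bulk RNA fewer cells of a type and less RNA per cell cannot be told apart.

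**Figure D4:**
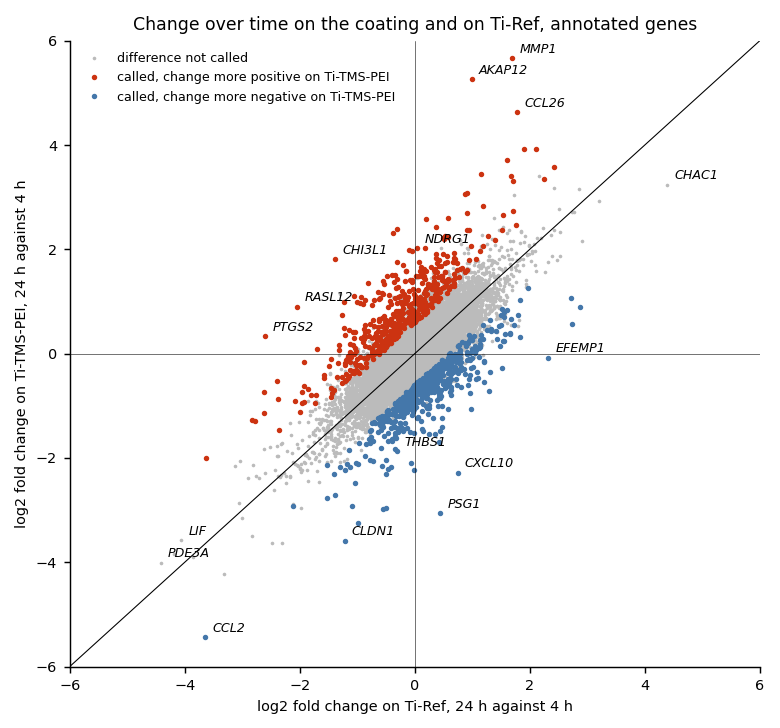
Log2 fold change between 24 h and 4 h on Ti-TMS-PEI (y axis) against that on Ti-Ref (x axis); each point is an annotated transcript cluster, the diagonal marks equal change, and colours mark clusters whose change differed between the surfaces. Most points follow the diagonal, and 1114 clusters of all 21448 were called in the difference.

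Much of the change on the coating was also seen on uncoated titanium. On Ti-Ref 2602 clusters were higher at 24 h (12.1%) and 2407 lower (11.2%). Calls in the same direction on both surfaces numbered 3072, which is 55.2% of the calls on Ti-TMS-PEI and 61.3% of those on Ti-Ref, and 28 clusters were called in opposite directions. Across all clusters the log2 fold changes of the surfaces had Pearson r = 0.76 and Spearman rho = 0.74, over clusters that are not independent replicates. Genes called on both surfaces in which the difference was not called included LIF (-3.58 on the coating and -4.07 on Ti-Ref), PDE3A (-4.01 and -4.42), CMKLR1 (-3.85 and -4.19), IL6 (-3.15 and -3.01), DUSP5 (-2.35 and -2.38), MT1F (2.22 and 2.20) and CHAC1 (3.24 and 4.39). A difference that was not called does not show that the surfaces act alike.

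The difference between the surfaces was called in 1114 clusters, 544 positive (2.54%) and 570 negative (2.66%). Of these 670 were also called over time on Ti-TMS-PEI: 322 rose on the coating with a more positive change there, 312 fell with a more negative change, 23 fell less than on Ti-Ref and 13 rose less. Of the 170 changes over 4-fold on the coating 68 were called in the difference, against 1114 of 21448 over all clusters. The change on the coating is a part of the difference, so choosing clusters by it raises this count. The agreeing signs among the 670 follow in part from the same overlap.

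The 2 largest positive differences belonged to the genes with the largest rises. AKAP12 rose by 5.26 on Ti-TMS-PEI and by 0.99 on Ti-Ref (difference 4.28 ± 0.50, limma adjusted p = 0.000253), and on the Ti-Ref arrays of 24 h it lay at 8.50, 7.95 and 8.65, below every coated array of that time. MMP1 rose by 5.66 and 1.69 (difference 3.97 ± 0.24, limma adjusted p = 8.95e-07), with 9.67, 8.97 and 9.22 on the Ti-Ref arrays of 24 h. In PTGS2, the inducible cyclooxygenase, the difference of 2.94 ± 0.21 came from a gene that was not called on the coating (12.29, 12.51, 12.99 and 12.73 at 4 h and 13.03, 13.17, 12.90 and 12.76 at 24 h, overlapping) and fell on Ti-Ref from 11.59 to 11.98 down to 9.11 to 9.33. CHI3L1, a secreted chitinase-like protein, rose by 1.81 on the coating and fell by 1.39 on Ti-Ref, and RASL12, a RAS-like GTPase, rose by 0.90 and fell by 2.04. CA12, a membrane carbonic anhydrase, and KLHL41, a kelch protein of muscle, rose by 2.31 and 2.40 on the coating and had changes of -0.37 and -0.31 on Ti-Ref. KLHL41 was spread at 24 h from 7.25 on array A and 6.54 on B to 4.68 on C and 5.69 on D.

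The largest negative difference was that of PSG1, a pregnancy-specific glycoprotein, which lay at 7.97, 8.16, 8.14 and 8.17 at 4 h and 4.5, 4.92, 5.48 and 5.30 at 24 h on the coating, and at 7.40 to 7.78 and 7.81 to 8.24 on Ti-Ref (difference -3.50 ± 0.25, limma adjusted p = 4.08e-06). Its paralog PSG5 had a difference of -2.22, and probes of this family may not tell its members apart. CXCL10, a chemokine for T cells, fell by 2.29 on the coating and rose by 0.74 on Ti-Ref. DLC1, a tumour suppressor, fell by 2.96 on the coating against a change of -0.49 on Ti-Ref, and GUCY1A2, a subunit of soluble guanylate cyclase, by 2.98 against -0.56. CLDN1 (difference -2.37) and TNFSF15 (-2.26) fell on both surfaces and further on the coating. EFEMP1, the matrix protein fibulin-3, showed the reverse of PTGS2: 5.62 to 5.85 at 4 h and 4.99 to 6.18 at 24 h on the coating, overlapping, against a rise from 4.97 to 6.26 up to 7.46 to 8.43 on Ti-Ref.

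**Figure D5:**
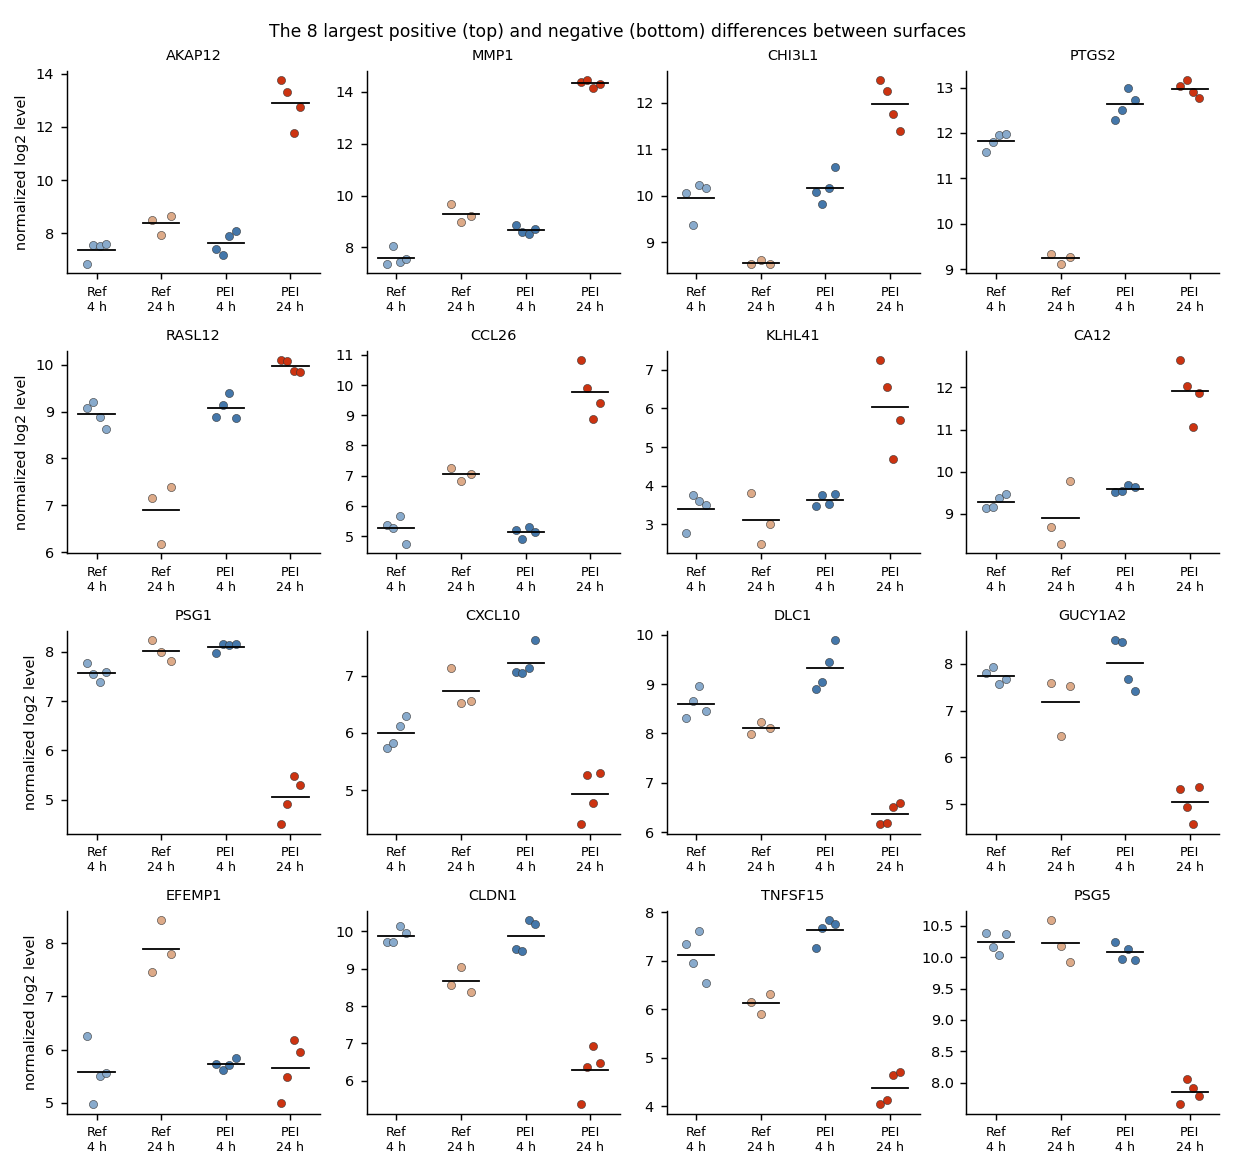
Normalized log2 level (y axis, its own range in each panel) of the 8 genes with the largest positive and the 8 with the largest negative difference between the surfaces; points are arrays of Ti-Ref (Ref) and Ti-TMS-PEI (PEI) at 4 h and 24 h, and lines are group means. AKAP12 and MMP1 reach 11.77 to 14.46 only on the coated arrays of 24 h, PTGS2 falls to 9.11 to 9.33 only on Ti-Ref, and PSG1 falls to 4.5 to 5.48 only on the coating.

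Of the 54 G2 and M phase genes 42 had a negative difference between the surfaces and none a positive one (median -0.92). On Ti-Ref 14 of these genes were higher at 24 h and none lower. S phase genes had 16 of 43 negative and none positive, histones 11 of 43 and none, and ribosome biogenesis genes 9 of 42 and none. Without single arrays the count of negative G2 and M phase genes ranged from 24 to 45, with 24 without Ti-Ref 24 h array A, 26 without Ti-Ref 24 h array B and 27 without Ti-TMS-PEI 24 h array B, and no gene was positive in any of these fits. Lysosomal genes had 8 of 27 positive and none negative, integrins 5 of 16 positive and 1 negative, and hypoxia genes 4 of 21 positive and 1 negative. On Ti-Ref the lysosomal genes had a median of 0.05 with 1 higher and 1 lower. Of the 18 NF-kappaB targets 2 were negative and none positive, against 2.66% negative over all clusters. The metallothioneins (none of 11 either way, median -0.06) and the endoplasmic reticulum folding genes (none of 27 either way, median -0.05) had no calls in the difference. Over all clusters 2.54% were positive and 2.66% negative. An absence of calls in lists of this size lies near those shares and is no result about their genes.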

How the data were processed

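Total RNA from both surfaces was labelled and hybridised to Clariom S arrays. The authors summarised the scans with SST-RMA in the Transcriptome Analysis Console, with background adjustment, quantile normalization and log2 transformation, separately for each time, and the deposited values are log2 signals per transcript cluster. The genome build was not given in the sources used here. 1 Ti-Ref array of 24 h was left out by the authors.

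All 15 arrays were quantile normalized together and fitted with limma 3.58.1 in R 4.3.3. The 8 Ti-TMS-PEI arrays gave the change over time, the 7 Ti-Ref arrays that on Ti-Ref, and a fit of 4 groups the difference between the surfaces. Calls needed a fold change over 1.5, p under 0.05 and Benjamini-Hochberg adjusted p under 0.05 over all 21448 clusters. Gene symbols came from the platform annotation, and all 17709 matched RefSeq. No probe was filtered, and no detection flags were used. Genes were described in 53 lists of 1253 genes, of which 1122 were measured and the others not analysed here. The named genes were the 12 largest rises and 12 largest falls with arrays of both times apart, the 8 largest positive and negative differences between the surfaces, and in each list up to 5 called genes with the smallest adjusted p and up to 2 bright genes that were not called. The lists, members and rules were chosen with earlier results of these data known. The scripts were tested on simulated data. Alternatives covered scaling, variance model, array weights, a replicate block, filters, thresholds and leaving out each array.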

Additional observations from a re-analysis of the deposited data

Results flagged for a closer look

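Among the 168 genes named in the text, the change over time on Ti-TMS-PEI differed from that on Ti-Ref for 72 in the limma fit of 4 groups, 35 of them positive and 37 negative. Over all 21448 clusters 1114 were called. Many of the 168 were named for a called difference or for a large change on the coating. The count of 72 follows in part from that choice and is no result about these genes. Values in parentheses are the change on Ti-TMS-PEI minus the change on Ti-Ref on the log2 scale. The differences above 1.5 were those of AKAP12 (4.28), MMP1 (3.97), CHI3L1 (3.20), RASL12 (2.94), PTGS2 (2.94), CCL26 (2.85), KLHL41 (2.71), CA12 (2.68), ADGRG1 (2.29), ITGA8 (2.12), ID2 (2.03), NDRG1 (1.98), PLA2G4A (1.91), YPEL3 (1.82), JUP (1.74), PDGFRB (1.73), NPTX1 (1.73), CPM (1.61) and HSPB8 (1.55). The smaller positive differences were those of P4HA2 (1.46), CCNG2 (1.45), ID3 (1.43), MMP14 (1.42), COL4A5 (1.35), GPNMB (1.31), FGF18 (1.15), ID1 (1.12), FGF7 (1.11), ITGA11 (1.09), SQSTM1 (1.05), WNT7B (1.04), JUNB (1.02), HSPA1A (1.0), CD68 (0.95) and CTSD (0.90). The differences below -1.5 were those of PSG1 (-3.50), CXCL10 (-3.03), DLC1 (-2.46), GUCY1A2 (-2.42), EFEMP1 (-2.40), CLDN1 (-2.37), TNFSF15 (-2.26), PSG5 (-2.22), CCL2 (-1.79), THY1 (-1.57), THBS1 (-1.56) and XRCC3 (-1.53). The smaller negative differences were those of PTGER4 (-1.29), MFAP5 (-1.24), CRY1 (-1.21), DIAPH3 (-1.2), NEK2 (-1.16), DUSP7 (-1.12), NRG1 (-1.06), KIF15 (-1.04), FGF2 (-0.94), CCN1 (-0.93), CENPF (-0.91), TNFAIP3 (-0.90), E2F8 (-0.87), HBEGF (-0.84), MMP3 (-0.84), HELLS (-0.79), FGF5 (-0.77), ASPM (-0.75), CDK2 (-0.74), RRM1 (-0.73), PWP2 (-0.71), PLK1 (-0.70), MKI67 (-0.69), SPRY2 (-0.68) and HEATR1 (-0.61).

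In each of the 336 groups of 4 arrays of Ti-TMS-PEI formed by these genes and the times, the highest and lowest array was set against the others. An array stood apart in 14 of them, 4.17%, where chance marks about 1 group in 20. These levels, with the range of the other 3 arrays, were those of NFATC2 on 4 h array B (9.46 against 8.75 to 8.86), FOXC2 on 4 h array A (9.22 against 9.54 to 9.60), PSG1 on 4 h array A (7.97 against 8.14 to 8.17), CXCL10 on 4 h array D (7.62 against 7.05 to 7.14), DUSP6 on 24 h array A (11.63 against 12.14 to 12.24), BMP4 on 4 h array B (3.81 against 3.35 to 3.40) and WNT7B on 24 h array D (7.72 against 7.33 to 7.35). The others were those of PLK1 on 4 h array A (15.54 against 15.65 to 15.67), RRP1 on 4 h array A (12.44 against 12.19 to 12.23), CDH11 on 24 h array D (9.44 against 10.29 to 10.40), MT2A on 4 h array A (17.9 against 18.01 on the others), PDIA4 on 24 h array D (11.91 against 11.78 to 11.79), SQSTM1 on 24 h array D (15.26 against 15.58 to 15.64) and GPNMB on 4 h array B (13.36 against 13.51 to 13.53).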

How the results depend on the processing

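Calls over time numbered 5561 for Ti-TMS-PEI and 5009 for Ti-Ref, and the difference between the surfaces was called in 1114. Without 1 array in turn these counts ranged from 5337 to 5686, from 4375 to 5129 and from 748 to 1203, and every other change of normalization, variance model or filter stayed within 1.5 times except those that follow. With the deposited values as they stand the counts were 12522 for Ti-TMS-PEI and 12353 for Ti-Ref, since each time keeps its own scale there. A fold change over 2 left 1832, 1492 and 436 clusters, and an adjusted p under 0.01 left 418 in the difference. Whether the letters pair the arrays of the 2 times was not settled. On Ti-TMS-PEI same-letter deviations correlated at 0.01 to 0.06 and those of different letters at -0.09 to 0.06. With the letter as a replicate block the counts were 5581, 5056 and 1036.

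Of all 5561 calls on Ti-TMS-PEI, 4608 were also called with median-centred deposited values and 4929 with centring on reference genes. The genes described were chosen largely for big changes or small adjusted p, so they were more likely than others to keep a call. Of the 154 called genes among the 168 described, 147 kept their call and sign under every alternative other than the deposited values as they stand. The other 7 lost their call or turned with median-centred deposited values, at 0.23 in CTSD, 0.44 in MCM4, 0.43 in MT1E, 0.27 in RPL27, 0.58 in SQSTM1, -0.24 in MT1X and -0.57 in XRCC3, and XRCC3 also lost it at -0.51 with centring on reference genes, -0.57 without 4 h array B and -0.49 without 24 h array A. With the values as they stand the log2 fold changes turned to 0.04 in BUB3, 0.30 in DUSP1, 0.20 in E2F8, 0.83 in EFEMP1, 0.42 in EGFR, -0.37 in GAPDH, -0.44 in MT2A, 0.33 in WNT5A and 0.40 in XRCC3. With median-centred deposited values they turned to -0.49 in COL1A1, -1.33 in GAPDH, -1.40 in MT2A, -0.80 in PLK1, -0.11 in PTGS2 and -0.38 in SPARC. Cyclic loess turned GAPDH to -0.11 and MT2A to -0.14, and centring on reference genes turned EFEMP1 to 0.018. Without 1 array in turn EFEMP1 ranged from -0.25 (without 24 h array C) to 0.14 (without 24 h array A), and PLK1 from -0.010 (without 24 h array C) to 0.19 (without 24 h array A). With median-centred deposited values the counts higher and lower were 6 and 2 for lysosomal genes, 8 and 2 for hypoxia genes and 5 and 5 for endoplasmic reticulum folding genes. The cause was not tested beyond the construction of each scaling. Few arrays and the floor and ceiling of the intensity range limit what dim and very bright genes can show.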

Other observations

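The share of clusters called over time differed with the level of the signal. With the clusters ranked by mean level and divided into 4 bins of 5362, 11.6% of the dimmest bin were called on Ti-TMS-PEI, 27.1% and 36.3% of the middle bins and 28.6% of the brightest bin. In the difference between the surfaces the shares were 0.4%, 1.9%, 7.5% and 11%. The median levels of these bins were 3.42, 4.88, 8.05 and 11.64 on the log2 scale.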
